A study of Mus musculus with 2 samples.

Results

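A-kinase anchoring proteins (AKAPs) were examined in sorted keratinocytes of control mice and of mice with a conditional Med1 deletion. Med1 is one of the subunits of Mediator, the complex that passes signals from transcription factors to RNA polymerase II. The 7 genes described are Akap1, Akap2, Akap7, Akap8, Akap8l, Akap9 and Akap10, taken by their symbols in the platform's probe annotation with all of their probes: 18 of the 25697 probes on the array, and 7 of 16593 genes with a probe. They were chosen by values measured on these same arrays, so their levels and ratios are given as a description. The array held 12 genes whose symbol begins with Akap. All 7 members were detected on both arrays, and the other 5 (Akap3, Akap4, Akap6, Akap12 and Akap14) on neither, at intensities of 142.2 to 178.2 in CON and 144.9 to 171.2 in Med1cKO over their 8 probes. The 7 genes are thus the Akap-named genes of this array that rose above its background. The other 5, being undetected, have no ratio to set beside theirs. Detection means a detection p below 0.01 against negative control beads of the same array.

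Floxed Med1 was targeted with Cre recombinase under the keratin 14 promoter, which is active in basal cells of the epidermis and of the outer hair follicle. The CON group carried the same floxed alleles (MED1 fl/fl, C57BL6) without Cre, and the Med1cKO group was MED1 fl/fl with Cre. No treatment and no age is given in the labels. Keratinocytes of 3 mice per genotype were combined, sorted for integrin alpha6 with CD34 negative, and each pool was hybridized to 1 Illumina bead array, although other protocol fields describe whole skin RNA of each mouse. Cd34 RNA was nonetheless detected in both pools. With 1 pool per group there is no replicate error, and every difference below is between 2 pools and has no test.

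AKAPs are scaffolds that bind the regulatory subunits of protein kinase A (PKA) and hold the kinase at one place in the cell, often together with phosphatases and phosphodiesterases, so that a cAMP signal acts locally. The family is defined by this binding and not by common ancestry, and its members sit at different structures: Akap1 at the outer mitochondrial membrane, Akap9 at the centrosome and Golgi, and Akap8 in the nucleus. In keratinocytes, cAMP and PKA are known to affect growth and differentiation.

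The start regions of 3 members are shown because these genes have 1 start window each in the RefSeq table (GRCm38.p6) and a lower ratio in the Med1cKO pool. Akap8 also has 1 window, with 3 GC boxes, which is not printed because it runs into the neighbouring gene. Each window runs from 250 bases before to 50 bases after the start, on the gene's own strand, and capitals mark GC boxes (GGGCGG or its reverse complement CCGCCC). Akap8l lies at chr17:32350528-32350827 (minus strand), Akap9 at chr5:3927936-3928235 (plus strand) and Akap10 at chr11:61930208-61930507 (minus strand).
Akap8l: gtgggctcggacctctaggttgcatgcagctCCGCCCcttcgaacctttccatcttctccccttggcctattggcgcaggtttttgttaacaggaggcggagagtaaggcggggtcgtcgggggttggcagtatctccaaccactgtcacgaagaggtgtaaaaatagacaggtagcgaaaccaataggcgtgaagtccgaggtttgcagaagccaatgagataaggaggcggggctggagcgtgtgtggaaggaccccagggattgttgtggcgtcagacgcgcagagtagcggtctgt
Akap9: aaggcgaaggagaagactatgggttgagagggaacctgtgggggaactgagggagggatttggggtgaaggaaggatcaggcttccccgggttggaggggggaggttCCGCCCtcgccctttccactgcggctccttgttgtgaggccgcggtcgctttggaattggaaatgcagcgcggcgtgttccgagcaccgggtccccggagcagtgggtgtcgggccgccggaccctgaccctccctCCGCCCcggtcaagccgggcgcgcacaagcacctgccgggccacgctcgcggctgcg
Akap10: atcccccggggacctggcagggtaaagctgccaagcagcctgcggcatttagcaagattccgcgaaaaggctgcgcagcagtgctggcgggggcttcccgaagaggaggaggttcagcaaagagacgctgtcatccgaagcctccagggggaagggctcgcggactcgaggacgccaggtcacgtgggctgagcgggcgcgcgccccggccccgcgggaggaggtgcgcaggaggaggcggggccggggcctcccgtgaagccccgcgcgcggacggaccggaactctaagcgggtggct
Akap9 has 2 GC boxes, Akap8l 1 and Akap10 none. RefSeq gives 14 windows for the 7 genes, with Akap2 found through its accession as part of the gene now called Pakap, and 2 of the Akap1 windows overlap almost wholly. The Akap2 windows are spread from chr4:57434225 to chr4:57854611, and those from chr4:57844998 on hold no GC box. Over all 7 genes, a GC box occurred in 10 of the 14 windows, against 35.7% of all 32851 windows. The windows were rich in G and C, with 13 of 14 above the median of all windows (52.7%). The cAMP response element TGACGTCA, searched on both strands, was in none of the 14, against 1.79% of all windows, and its half-site TGACG, which lies inside it, was in 3, against 20.8%. CCAAT (or ATTGG) was in 5, against 37.4%, and TATAAA (or TTTATA) in none, against 13.6%. Akap8 and Akap8l are neighbours on chromosome 17 with 185 bases and no gene between them, and 65 bases of the Akap8 window lie inside Akap8l.

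The members' ratios, which were known when the genes were picked, run as follows. The brightest probe of all 7 had a ratio below 0 (with cyclic loess normalization Akap2 was at 0.00), as did 56.5% of the 7182 genes detected on both arrays. Ratios are Med1cKO minus CON on the log2 scale after background correction and quantile normalization, and a gene's value is that of its probe brightest over both arrays. The median log2 ratio of the 7 was -0.40, or 1.32-fold lower, where the median of all genes was -0.06. None of the 7 differed 2-fold in either direction, a size reached by 1.81% of detected genes as lower and by 3.95% as higher. None was 1.5-fold lower (8.28% of detected genes). Since the members were picked with these ratios known, nothing is read from these counts.

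**Figure D1:**
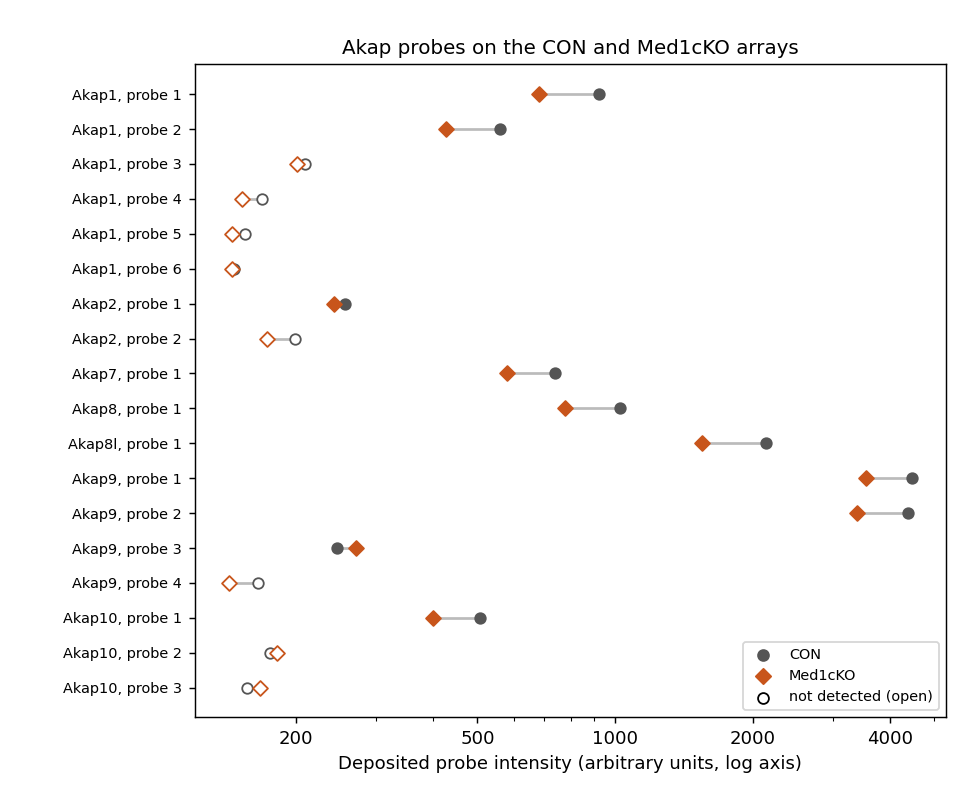
Deposited intensity (arbitrary units, log axis) of each of the 18 Akap probes, numbered within a gene from the highest mean level down, on the CON array (circles) and the Med1cKO array (diamonds), with open symbols for probes detected on neither array. Of the 10 detected probes, 9 lie further left in Med1cKO, and the exception is probe 3 of Akap9.

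Of the nuclear members, Akap8 binds chromatin and condensin and is linked to mitotic chromosome condensation. Its single probe read 1024 in CON and 777.2 in Med1cKO, a log2 ratio of -0.40 (1.32-fold lower). Akap8l, a nuclear homologue of Akap8, read 2137 in CON and 1547 in Med1cKO, a log2 ratio of -0.43 (1.34-fold lower). The neighbouring pair thus differed between the pools by almost the same factor, each measured by 1 probe only. This likeness is not particular to the pair, as Akap10 and Akap7, on other chromosomes, had log2 ratios of -0.41 and -0.38.

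Akap9 encodes a large coiled-coil scaffold of the centrosome and Golgi that takes part in microtubule nucleation. Its brightest probe read 4458 in CON and 3541 in Med1cKO (log2 ratio -0.29, 1.23-fold lower). A second probe read 4370 and 3381 (log2 ratio -0.34). Probe positions were not used here, so whether these probes read neighbouring stretches of the transcript is not known. The third Akap9 probe went the other way, from 246.0 in CON to 270.9 in Med1cKO, near the detection limit in CON. Its log2 ratio was 0.44, or 0.18 without background correction. Its ratio was 0.74 away from that of the brightest probe, a gap as large as or larger than that between the first and second probes in 96.1% of 1778 genes with several detected probes. The fourth probe was not detected, at 165.1 and 143.1. The lower Akap9 signal therefore holds for both bright probes and not for the dim detected one.

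The mitochondrial and endosomal anchors bind both types of PKA regulatory subunit. Akap1 holds PKA at the outer mitochondrial membrane, where the kinase phosphorylates the fission enzyme encoded by Dnm1l. Its brightest probe, annotated to transcript NM_001042541, read 922.6 in CON and 682.8 in Med1cKO (log2 ratio -0.46, 1.38-fold lower). A second probe, annotated to NM_009648, read 560.5 and 426.8 (log2 ratio -0.47). The probes of both transcript annotations thus gave ratios 0.01 apart, where the median gap between the first and second probes of a gene was 0.18. Another 4 Akap1 probes were detected on neither array, with intensities from 145.4 to 210.0.

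Akap10, which combines PKA anchoring with regulator of G protein signalling domains, read 505.6 in CON and 400.2 in Med1cKO by its detected probe (log2 ratio -0.41, 1.33-fold lower). Its other probes read 175.6 and 156.5 in CON and 181.7 and 167.1 in Med1cKO. These lay within the background of both arrays, so their slightly higher readings in Med1cKO have no direction to report.

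Akap7, whose short forms tether PKA beside membrane ion channels, read 740.6 in CON and 580.6 in Med1cKO (log2 ratio -0.38, 1.30-fold lower) by its only probe. Akap2, an anchor associated with the actin cytoskeleton, was barely above background, at 256.5 in CON and 242.7 in Med1cKO (log2 ratio -0.08, 1.06-fold lower). Its ratio lay close to the median of all genes, and its other probe (199.4 and 173.0) was detected on neither array. By the brightest probe, Akap2 was the member furthest from the rest. As the mean over detected probes, Akap9 had a log2 ratio of -0.06 and Akap2 one of -0.08, so this split depends on the probe used. By their brightest probes, the other 6 spanned log2 ratios of -0.46 to -0.29, a width of 0.17. This interval was drawn after the values were seen, and 12.2% of all genes detected on both arrays fell in it.

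**Figure D2:**
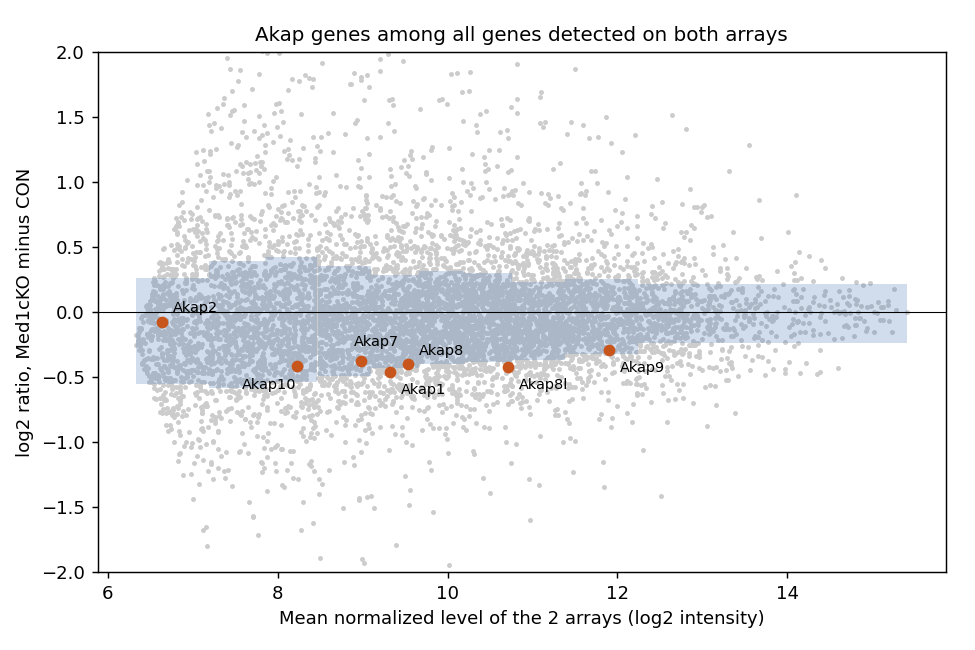
Log2 ratio (Med1cKO minus CON) against mean normalized level (log2 intensity) for the 7182 genes detected on both arrays (grey) and the 7 Akap genes (orange). The blue band is the median ± 1 robust SD of genes in each of 10 level bins, which measures how genes differ and says nothing of replicates, and 51 genes beyond ±2 are not drawn. Akap1 and Akap8l lie just below the band and the other members within it or at its edge.

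No single member stood far from genes of similar level. Set against the median of its level bin, Akap8l lay 1.13 robust SD lower, Akap1 1.09, Akap8 0.91, Akap9 0.90, Akap10 0.74 and Akap7 0.73. Akap2 lay 0.16 robust SD from its bin median, on the higher side. Among all genes detected on both arrays, 13% had a ratio as low as or lower than Akap1, 15.3% than Akap8l and 25.2% than Akap9. Each ratio taken alone is thus of a size common on these arrays.

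Without background correction the folds were smaller, at 1.30-fold for Akap1, 1.31-fold for Akap8l, 1.26-fold for Akap8, 1.22-fold for Akap7 and Akap9, 1.21-fold for Akap10 and 1.02-fold for Akap2. The authors' normalized values gave log2 ratios of -0.39 for Akap8l, -0.37 for Akap1, -0.33 for Akap8, -0.28 for Akap9 and Akap10, -0.27 for Akap7 and -0.04 for Akap2. The 6 members other than Akap2 were lower under each of the 6 settings.

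**Figure D3:**
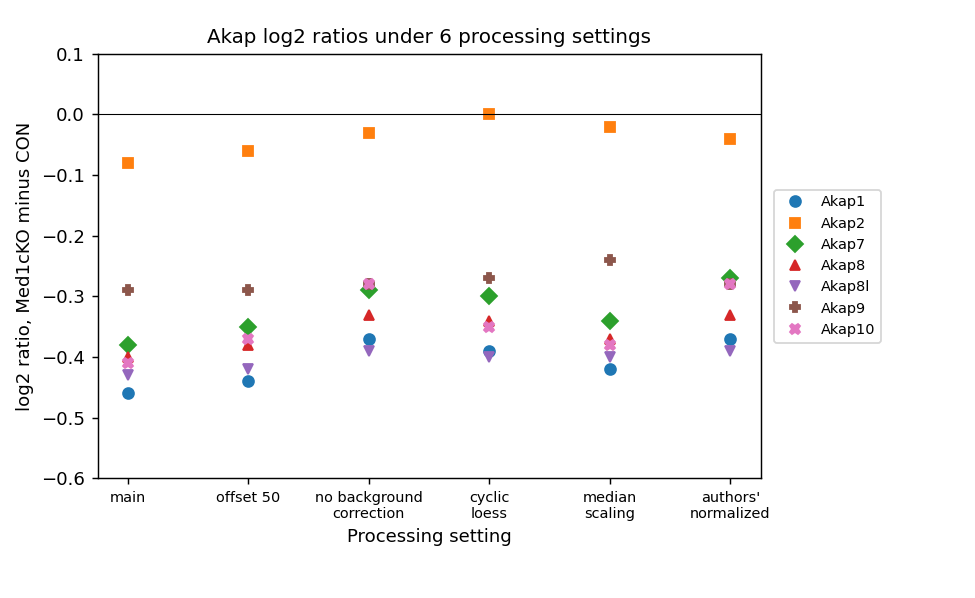
Log2 ratio (Med1cKO minus CON) of the brightest probe of each Akap gene under 6 processing settings. Akap2 sits between -0.08 and 0.00, and the other members between -0.46 and -0.24.

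PKA itself was compared next, since AKAPs are defined by binding its regulatory subunits. Whether each of the 7 members binds them was not examined here. Of 10 genes for PKA subunits and PKA inhibitors, 7 were detected on both arrays, with a median log2 ratio of 0.00 against -0.06 for all genes. A 1.5-fold lower value was met by 2 of them, against 8.28% of all detected genes, and a 1.5-fold higher value by none, against 9.25%. The regulatory subunit Prkar1a read 5831 in CON and 5698 in Med1cKO (log2 ratio -0.02). The catalytic subunit Prkacb read 2461 and 2328 (0.00), and Prkaca read 2231 and 2149 (0.01). These 3 kinase subunits were nearly level between the pools.

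The other regulatory subunits were not detected. Prkar2a read 174.3 in CON and 166.6 in Med1cKO, Prkar2b read 151.5 and 148.6, and Prkar1b read 170.1 and 179.1. Each of the 3 was measured by 1 probe, so this gives no level for them, and it leaves Prkar1a as the only regulatory subunit with a value here.

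The genes of this list that passed 1.5-fold were both inhibitors. Pkia, a small protein that blocks the PKA catalytic subunit, read 2424 in CON and 1320 in Med1cKO (log2 ratio -0.88, 1.84-fold lower, or 1.75-fold without background correction). Pkib, of the same inhibitor family, read 633.4 and 397.2 (log2 ratio -0.88, or -0.61 without background correction), and its second probe, detected in CON only, also read lower (283.3 and 212.0). The third inhibitor, Pkig, read 484.1 and 473.1 (log2 ratio 0.05). Prkx, a PKA-related catalytic kinase, went the other way, with 1988 in CON and 2517 in Med1cKO (log2 ratio 0.44) and 0.59 by its other detected probe.

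**Figure D4:**
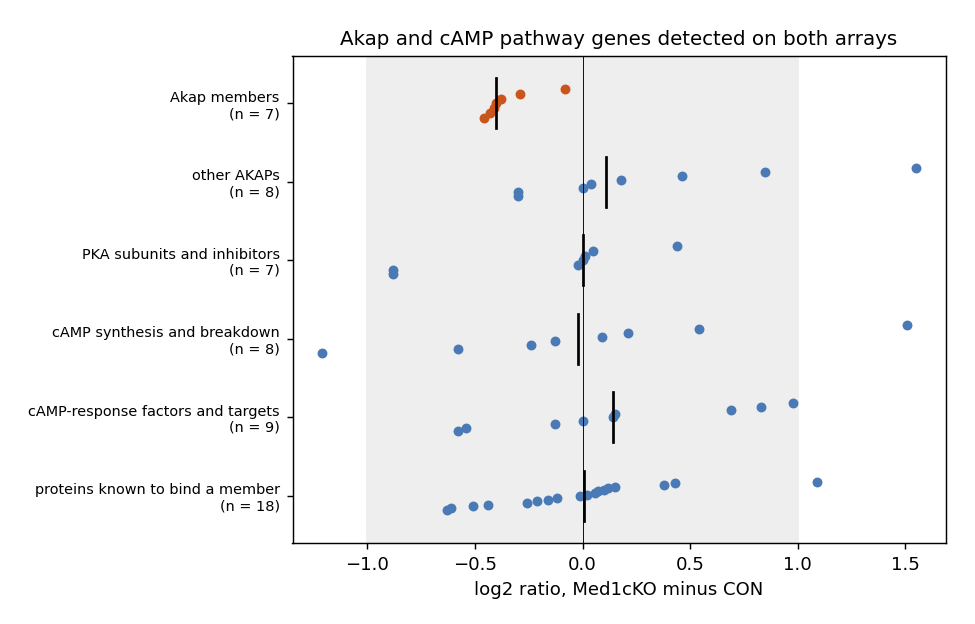
Log2 ratio (Med1cKO minus CON) of the genes detected on both arrays in the Akap group (orange) and in 5 related lists (blue), with the median of each as a black line and differences of less than 2-fold shaded. The Akap median is -0.40, and those of the other lists lie between -0.02 and 0.14.

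Other proteins reported to anchor PKA had mixed ratios. Of 20 such genes with a probe, 8 were detected on both arrays, and their median log2 ratio was 0.11. Of these 8, 3 were below 0, against 56.5% of all genes detected on both arrays. Wasf1, an actin regulator of the WAVE family, read 308.3 in CON and 584.9 in Med1cKO (2.93-fold higher, or 1.97-fold without background correction). Map2, a microtubule-associated protein, was 1.81-fold higher (737.9 and 1150), and Rab32, a small GTPase of mitochondria and melanosomes, 1.37-fold higher. Ezr, which links membrane to actin, and Acbd3, a Golgi protein, had log2 ratios of 0.04 and 0.00. Wasf2, another WAVE protein, and the centrosome scaffold Pcnt were both 1.23-fold lower (log2 ratio -0.30). Both had dim CON intensities (299.5 and 290.4) and were 1.1-fold lower without background correction.

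Genes that make, sense or break down cAMP were mixed. Of 29 with a probe, 11 were detected, and the 8 detected on both arrays had a median log2 ratio of -0.02. Among the 11, 1 gene was past 2-fold in each direction, against 1.81% of all detected genes lower and 3.95% higher. Adcy6, an adenylyl cyclase, read 1551 in CON and 719.6 in Med1cKO (log2 ratio -1.21, 2.32-fold lower). Pde4a, a cAMP phosphodiesterase, read 257.0 and 432.3 (log2 ratio 1.51, 2.85-fold higher, or 1.75-fold without background correction), starting near background. The stimulatory G protein subunit Gnas had a log2 ratio of 0.21, the inhibitory subunit Gnai2 -0.13, and Popdc3, a cAMP-binding membrane protein, -0.58.

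Of 17 cAMP-response factors and target genes with a probe, 11 were detected and 4 of these passed 1.5-fold, all of them higher, where 9.25% of all detected genes were higher by that much. Without background correction, and with the authors' values, only 1 passed. The median was 0.14 over the 9 detected on both arrays. Crem and Crtc1 fell just short of the limit on the lower side, at 1.49-fold and 1.45-fold lower, and both were 1.19-fold lower without background correction. The other detected Crem probes had log2 ratios of 0.08 and 0.04. The clock gene Per1 read 4963 in CON and 7867 in Med1cKO (log2 ratio 0.69). Crtc3, a CREB coactivator, had a log2 ratio of 0.83 and the nuclear receptor Nr4a2 0.98, both from dim CON intensities (297.3 and 252.8), and these were 1.38-fold and 1.39-fold higher without background correction. Nr4a3, detected in Med1cKO only, read 210.4 in CON and 289.4 in Med1cKO, 1.42-fold higher without background correction. Fos and the acetyltransferase Ep300 had log2 ratios of 0.00 and 0.14.

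Proteins known to bind a member were not lower as a group, with a median of 0.00 over 18 detected genes. Of these, 9 were below 0, against 56.5% of all genes detected on both arrays. Past 1.5-fold were 2 lower and 1 higher, against 8.28% and 9.25% of all detected genes. Cdk5rap2 and Golga2, centrosome and Golgi partners of Akap9, had log2 ratios of -0.63 and -0.61, although the other detected Golga2 probes disagreed, with -0.38, 0.35 and -0.48. Without background correction both were under 1.5-fold, at 1.31-fold and 1.46-fold lower, and the number of genes in this list past 1.5-fold was 1 in place of 3. Slc9a3r1, a PDZ scaffold, was 2.13-fold higher (1362 and 2603). The phosphatase subunits Ppp1ca, Ppp3ca and Ppp3cb had log2 ratios of 0.10, 0.12 and -0.26, and another detected Ppp3ca probe had -0.09.

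Keratinocyte markers were detected in both pools, and so was Cd34, whose protein the sort selected against. Cd34 read 320.7 in CON and 279.3 in Med1cKO (log2 ratio -0.31), and Itga6 read 1056 and 939.0. The Cd34 readings were dim, as the dimmest detected probes read 239.2 in CON and 219.4 in Med1cKO. The pools were thus not free of Cd34 RNA, but RNA does not measure the surface protein used in the sort. The brightest Med1 probe read 793.6 in CON and 452.2 in Med1cKO. All 5 basal keratinocyte markers were detected on both arrays, with a median log2 ratio of -0.15. Summed intensities, which include background, were 111116 in CON and 100002 in Med1cKO for these 5, and 52065 and 52587 for 4 suprabasal markers. The bulge markers Krt15 and Cd34 together read 29242 in CON and 21426 in Med1cKO, nearly all of it Krt15 (28921 and 21147). Their log2 ratios were -0.43 and -0.31, the latter -0.15 without background correction. Lower values were not particular to the bulge markers. Of the 5 basal markers, 4 were also below 0, with Krt5 at -0.48, and Krt14 was at 0.09. The sums were 970 in CON and 3654 in Med1cKO for 6 fibroblast markers. Of these, Col1a2 and Pdgfra were detected on neither array and Dcn, Col1a1, Col3a1 and Lum in Med1cKO only, so the CON sum is background. Dcn made up most of the difference, at 178.2 in CON and 2297 in Med1cKO. For 3 T cell markers the sums were 934 and 1720, and for 3 Langerhans cell markers 1556 and 2435. They were 501 and 528 for 3 endothelial markers, none of which was detected. They were 497 and 585 for 3 melanocyte markers, of which Tyrp1 and Pmel were detected on neither array and Dct in Med1cKO only. The red cell gene Hba-a1 read 492.1 in CON and 2231 in Med1cKO. The part of any of these cells in the Akap ratios was not tested. Fewer cells that carry an Akap transcript and less of it per cell cannot be told apart in pooled RNA.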

How the data were processed

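RNA of 1 CON pool and 1 Med1cKO pool was measured on 2 Illumina bead arrays. The deposited probe intensity values are linear and not normalized, per the file headers, and the deposited detection p-value stands beside each. Per the submitters' processing notes, GenomeStudio 2011.1 was used. The authors' normalized intensity values (method: not given in the sources used here) served as an alternative.

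Intensities were processed with neqc of limma 3.58.1 in R 4.3.3 (background inferred from detection p-values, offset 16, quantile normalization, log2), which was tested on simulated data. Later steps used matplotlib 3.10.9, pandas 2.3.3 and numpy 2.4.6 in Python 3.11.15. A single gene symbol was annotated for 23978 of 25697 probes. The other 1719, with no symbol or with several, were left out of the gene values. The probe brightest over both arrays stood for its gene. A gene detected on 1 array was given a bound, with the undetected value raised to the lowest detected one.

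The arrays had median intensities of 197.6 (CON) and 191.2 (Med1cKO), with 40.8% and 42.7% of probes detected. The number of arrays limits the precision, and no test was possible. Bead-level errors were not used here. Named genes were all members, the 3 brightest detected genes of each list and those at least 1.5-fold different. Prkaca, Prkar1b, Prkar2a, Prkar2b, Pkig, Wasf2, Pcnt, Crem and Crtc1 were added after their values were seen. With 2 arrays no likeness of pattern between genes could be measured. Members and lists were chosen with earlier results of these data known. Alternatives were no background correction, cyclic loess, median scaling, an offset of 50, the authors' values, a detection p below 0.05, a 1.5-fold limit and the mean over detected probes.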

Additional observations from a re-analysis of the deposited data

How the results depend on the processing

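The median Akap log2 ratio and the count of 0 members at least 2-fold different held under all alternatives run for them, the former between -0.40 and -0.28, with the smaller values without background correction and from the authors' normalized values. Akap2 had a log2 ratio of 0.00 with cyclic loess, on the positive side of 0 before rounding. Akap9 had -0.06 as the mean over its detected probes, because its dim detected probe enters that mean with the same weight. The number of cAMP-response genes at least 1.5-fold different fell from 4 to 1 without background correction and to 1 with the authors' values. The number of binding proteins past 1.5-fold fell from 3 to 1 without background correction, with cyclic loess, with median scaling and with the authors' values. The cause was not tested. No paired analysis was possible because each group has 1 array, and no array could be left out. Low signal limits genes and probes near background on the CON array, among them Akap2, the dim Akap9 probe, Pde4a, Nr4a2, Wasf2, Pcnt and Cd34.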
